A study of Mus musculus with 24 samples.

Results

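Potassium channels set the resting potential of a neuron, end its action potentials and shape the intervals between them. In the NAc, the ventral striatal nucleus that links reward and motivation to action, nearly all neurons are GABAergic projection neurons that rest at hyperpolarized potentials held by inward rectifier potassium channels, and A-type and M-type currents govern how readily they fire. The genes are named *Kcn* and fall into subfamilies: voltage-gated pore subunits open on depolarization, electrically silent subunits work only in company with other pore subunits, auxiliary subunits tune gating and trafficking, and the calcium- or sodium-activated, inward rectifier and tandem-pore (K2P, leak) subunits complete the set.

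The genes described here were the protein-coding genes with symbols starting *Kcn* and more than 5 reads in all 3 libraries of a group. Of 94 such symbols and entries in the mRNA table, 84 genes met the rule, among 18593 genes tested and 38293 listed. They comprised 29 voltage-gated pore genes, 9 electrically silent genes, 12 auxiliary genes of voltage-gated channels, 11 calcium- or sodium-activated genes including 3 *Kcnmb* auxiliaries, 12 inward rectifiers and 11 K2P genes. The symbol *Kcnb2* is carried by a pair of neighbouring Ensembl entries, so the 84 genes bear 83 symbols.

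mRNA was sequenced from NAc punches of C57BL/6J mice aged 9 weeks, in 12 libraries. The groups were nonstressed males (NSM), males after subchronic variable stress (SCVS; SM), nonstressed females (NSF) and females after SCVS (SF), with 3 libraries each. Every library pooled the bilateral punches of 5 mice, 10 punches in all, so the spread between libraries is that between pools, not between animals. The comparisons ask how SCVS alters NAc mRNA in each sex, and how the sexes differ with and without stress. Libraries held 41076780 to 60867747 counted reads. Below, a level is in CPM, that is reads divided by the TMM-scaled total of the library, a level per kilobase divides CPM by the length of the merged exons, and a log2 fold change comes from voom and limma over all 12 libraries. Calls required a fold change of 1.3 or more together with an unadjusted p under 0.05, and adjusted p-values were corrected over all genes tested.

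The libraries differed in signs of tissue makeup, which bear on several results. Summed over 10 markers of cortical glutamatergic neurons (all 10 tested; *Slc17a7*, *Tbr1*, *Neurod6* and others), the level was 52.9, 50.6 and 69.5 CPM in the NSM libraries, 92.5, 189.2 and 249.2 in SM, 306.7, 66.7 and 426.9 in NSF, and 86.9, 93.0 and 162.6 in SF. NSF1, NSF3, SM2 and SM3 therefore stood highest. The called results below were also fitted without the pair of libraries of the group concerned and with the mean marker level as a covariate. That mean, on the log2 scale, did not overlap between NSM (-0.21 to 0.95) and SM (1.57 to 3.18) or NSF (1.08 to 3.87). In those comparisons the covariate and the group cannot be fully told apart, so the cause of a lost call or changed value was not tested. Of 11 striatal projection neuron markers, 10 were tested, and their sum lay between 5645 and 7085 CPM in all libraries, so the defining markers of the labelled tissue were present. Red blood cell markers summed to 38.5 to 47.2 CPM in SM against 21.8 to 27.4 in NSM, and choroid plexus markers reached 108.2 CPM in NSM1 against 31.9 to 43.5 elsewhere. Oligodendrocyte markers were also higher in SM without overlap (5528 to 5559 CPM against 4601 to 5145 in NSM). So were markers of microglia (232.1 to 259.4 against 204.7 to 224.8) and mural cells (138 to 155.1 against 129 to 132.5). The sum of meningeal fibroblast markers was lower in SM (12.31 to 15.2 against 15.55 to 17.24), but the genes did not move alike. In males *Col1a2*, the most abundant of them, had a log2 fold change of -0.48. *Col1a1* (0.07), *Dcn* (0.24) and *Lum* (0.46) had positive values. In such bulk samples, fewer cells of a type and less RNA per cell cannot be told apart.

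What pore subunits share is the selectivity filter, a short loop that lines the narrowest part of the pore and passes potassium but not sodium. It was searched for in the longest coding sequence of each gene as 5 codons for threonine or serine; valine, isoleucine or leucine; glycine; tyrosine, phenylalanine or leucine; and glycine. The pattern was present in 68 of the 69 pore members (the exception was the second *Kcnb2* entry), in 0 of the 15 auxiliary members and in 1.27% of all 22363 protein-coding genes. Of the 11 K2P members, 9 matched it 2 times, as their tandem pores do, and 2 (*Kcnk1* and *Kcnk7*) once. A filter that departs from the pattern is not found by this search, so 1 match does not mean 1 pore loop. The match in *Kcnk1* began at residue 225 of 336. The stretches below, shown because these genes were either among the more abundant pore subunits or carried the stress and sex results, give the 5 filter codons in capitals with 3 codons on each side, 5′ to 3′ on the coding strand. Each lies in 1 coding exon of the GENCODE annotation of the NCBIM37 build.
*Kcna1* (chr6:126592237-126592269, minus strand): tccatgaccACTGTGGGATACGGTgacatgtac
*Kcnh7* (chr2:62615391-62615423, minus strand): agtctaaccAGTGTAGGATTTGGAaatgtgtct
*Kcnj3* (chr2:55290029-55290061, plus strand): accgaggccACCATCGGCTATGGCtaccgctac
*Kcnj5* (chr9:32130135-32130167, minus strand): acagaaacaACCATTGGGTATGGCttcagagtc
*Kcnj6* (chr16:95054375-95054407, minus strand): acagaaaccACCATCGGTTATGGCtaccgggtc
*Kcnk2*, second filter (chr1:191080451-191080483, minus strand): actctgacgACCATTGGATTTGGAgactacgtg
*Kcnk12*, second filter (chr17:88145784-88145816, minus strand): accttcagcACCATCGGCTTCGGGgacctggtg
*Kcnk1* (chr8:128549220-128549252, plus strand): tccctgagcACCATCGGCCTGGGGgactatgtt

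Within the filter codons, the G protein-gated inward rectifiers were nearly alike, *Kcnj3* and *Kcnj6* sharing 14 of 15 bases and *Kcnj5* sharing 13 with each. *Kcnh7* and *Kcna1*, both voltage-gated, shared 10 of 15. *Kcnk1* shared 13 with *Kcnk12* and 10 with *Kcnk2*.

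Levels spanned more than 3 orders of magnitude across the members. Per kilobase, the highest were *Kcnip2*, a calcium-binding auxiliary subunit of A-type channels, at 79.9 CPM per kb (SD over 12 libraries 2.80), and the inward rectifier *Kcnj4* at 76.5 (SD 9.32), which did not differ beyond that spread. They were followed by the beta subunits *Kcnab2* (50.3) and *Kcnab1* (47.6) and the A-type pore *Kcnd2* (42.3). *Kcnk2*, a mechanosensitive leak channel, stood at 36.1, and *Kcnj10*, the inward rectifier of astrocytes, at 33.6. Before division by length, the top 8 genes together took 50.8% of the CPM of all members.

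**Figure D1:**
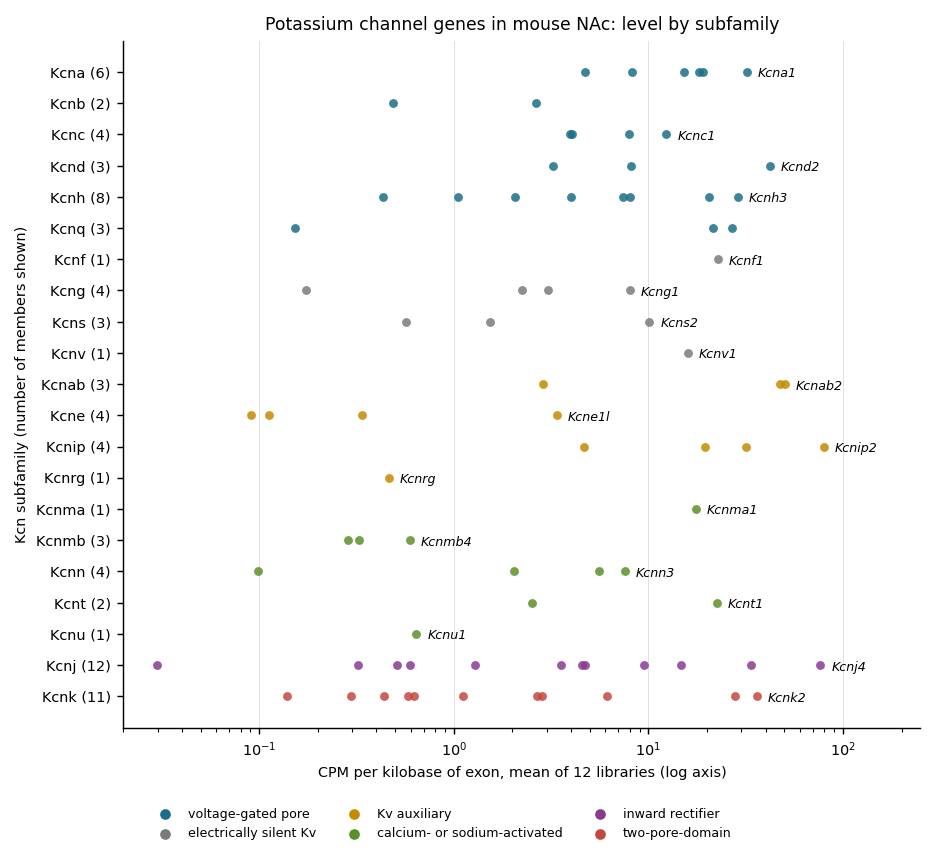
Mean level of 81 of the 84 members over the 12 libraries, in CPM per kilobase of exon on a log axis, with subfamilies as rows and classes as colours; the highest member is labelled in all but 2 subfamilies. The points run from 0.0298 (*Kcnj15*) to 79.9 (*Kcnip2*) CPM per kb.

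Within subfamilies, the leading members were as follows. *Kcna1* (32.2 CPM per kb), an axonal delayed rectifier, led the *Kcna* genes, *Kcnc1* (12.4), of fast-spiking neurons, the *Kcnc* genes, and *Kcnh3* (28.9) the *Kcnh* genes. Among silent subunits *Kcnf1* (22.9), *Kcnv1* (16.0), *Kcns2* (10.1) and *Kcng1* (8.04) were the highest of their subfamilies. *Kcnma1*, the pore of the large-conductance (BK) channel, stood at 17.6 CPM per kb, whereas its highest beta subunit, *Kcnmb4*, stood at 0.594. A limit is that exons of *Kcnmb4* overlap genes on the opposite strand. Summed gene by gene, the overlaps equal 51.8% of its exonic length, and bases shared by several genes may count more than once. *Kcnt1*, a sodium-activated channel, stood at 22.5 and *Kcnn3* (7.53) was the highest of the small-conductance calcium-activated (SK) channels. *Kcne1l* (3.39) was the highest *Kcne* gene. *Kcnu1* (0.641), best known from sperm, and the putative assembly regulator *Kcnrg* (0.466) are the only tested genes of their subfamilies.

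The rule left out 10 *Kcn* genes. *Kcnv2* had 2 to 10 reads per library and *Kcnj13* 1 to 8, and *Kcne1*, *Kcnmb3*, *Kcnj1*, *Kcnk15*, *Kcnk16*, *Kcnk18*, *Kcna10* and *Kcna7* had at most 5. Just inside it were *Kcne3* (mean 7.08 reads, past the minimum in 1 group), *Kcne2* (8, in 2), *Kcnj15* (9.83, in 2) and *Kcnn4* (12.5, in 3), so a member could enter through a single group where it was high.

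In males, SCVS changed 9 of 84 members (10.7%), against 6.44% of all genes tested; 5 rose and 4 fell, where the share of all genes was 2.36% up and 4.08% down. The falls included 2 of the 4 SK-family genes, *Kcnn2* and *Kcnn4*, the G protein-gated subunit *Kcnj5* and the K2P gene *Kcnk12*. The rises included *Kcnh7*, *Kcnj3* and *Kcng4*. *Kcne3* was also counted as a rise, but it passed the read minimum through SM alone, the group where it was higher, so its call is no support for the count. With the cortical markers as covariate, 12 members were called, against 7.56% of all genes, and only *Kcnn2* and *Kcnk12* of the 9 were among them. Without SM2 and SM3, 4 were called, against 6.08%, and *Kcnn2* and *Kcnn4* of the 9 were among them. The median log2 fold change was 0.06 over the members and -0.01 over all genes. At an adjusted p under 0.05 with no fold minimum there were 6 members, against 3.32% of all genes: *Kcnab2*, *Kcnk2* and *Kcnh7* rose and *Kcnn2*, *Kcnn3* and *Kcnd3* fell. Under the covariate, 0 members had an adjusted p under 0.05, and the share of all genes at that threshold in that fit is not given here. With the fold minimum as well as the adjusted p, in the fit to all 12 libraries, the members were 2, *Kcnh7* and *Kcnn2*, against 1.38% of all genes. In 33 members the male groups did not overlap (20 higher and 13 lower in SM), against 23.0% of all genes (11.3% higher and 11.7% lower).

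Among the SK channels, which couple calcium entry to the afterhyperpolarization, *Kcnn2* (chr18:45428659-45845678) stood at 20.5, 23.7 and 22.6 CPM in NSM and at 16.0, 16.1 and 18.5 in SM. In females its levels were 21.3, 24.1 and 24.5 CPM in NSF and 20.8, 22.8 and 22.1 in SF. The SM libraries thus lay below the other 9, and the log2 fold change in males was -0.40 (SE 0.0792, adjusted p = 0.0198). *Kcnn3* (chr3:89324086-89471683) behaved alike in level: 23.3, 27.2 and 25.9 CPM in NSM, 19.0, 21.6 and 18.5 in SM, 22.6, 27.9 and 23.7 in NSF, and 23.2, 23.6 and 21.9 in SF. Every SM library was below every other library, with a male log2 fold change of -0.37 (SE 0.0874, adjusted p = 0.0405), under the fold minimum. *Kcnn4*, the intermediate-conductance relative, was scarce, with 16, 17 and 12 reads in NSM and 3, 5 and 10 in SM, and fell by 1.12 on the log2 scale (SE 0.409, adjusted p = 0.141), a call lost without NSM2, SM1 or SM2 and with the cortical markers as covariate (-1.04, unadjusted p = 0.0859). *Kcnn1* had 0.18 (SE 0.117). In females the 4 values ran from -0.27 to -0.09, none with an unadjusted p under 0.05.

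For *Kcnn2* in males, the log2 fold change with the cortical markers as covariate was -0.40 (adjusted p = 0.119). With SM2 and SM3 left out it was -0.45. The part of the cortical signal in the *Kcnn2* fall was not tested. *Kcnn3* was -0.20 under the covariate (unadjusted p = 0.0732) and -0.41 without those libraries. Without NSM2, SM1 or SM2 the *Kcnn2* call was lost, its log2 fold change staying between -0.46 and -0.34 whichever library was left out. Over those omissions the adjusted p ran from 0.0170 to 0.108 for *Kcnn2*, 0.0192 to 0.136 for *Kcnn3*, 0.0191 to 0.0995 for *Kcnd3*, 0.0330 to 0.180 for *Kcnk2*, 0.0338 to 0.120 for *Kcnab2* and 0.0211 to 0.173 for *Kcnh7*.

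**Figure D2:**
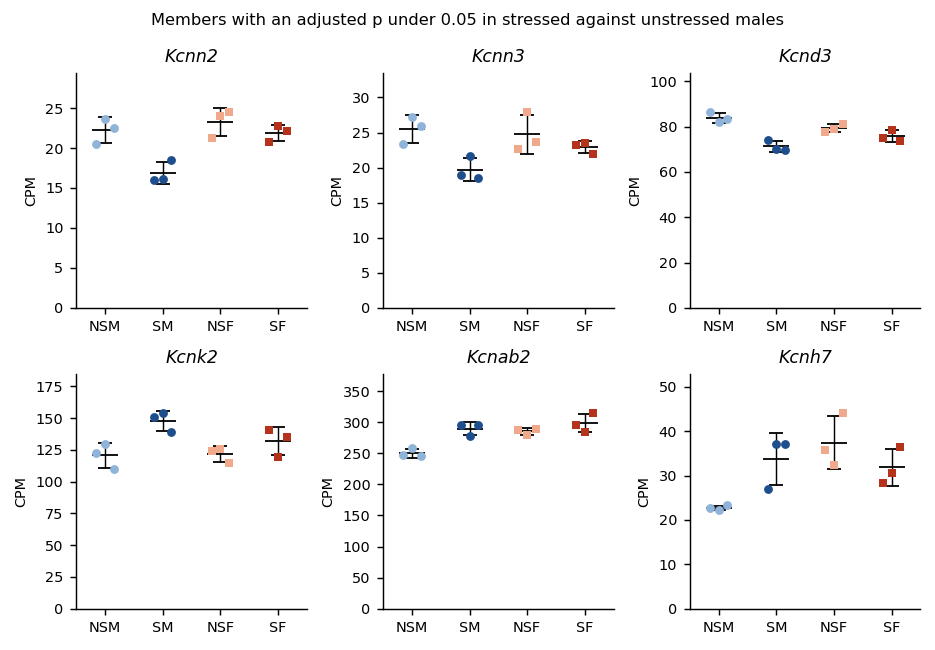
Level in CPM of the 6 members with an adjusted p under 0.05 in stressed against unstressed males, in the 3 libraries of each group (points), with mean and SD (bars); each vertical axis starts at 0. For *Kcnn2* and *Kcnn3* the SM libraries lie below those of the other 3 groups, and for *Kcnh7* the 3 NSM libraries do.

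The A-type channels open near threshold and delay firing. *Kcnd3*, which like *Kcnd2* forms their pore, stood at 86.3, 82.0 and 83.5 CPM in NSM and 74.1, 70.0 and 69.8 in SM, with 77.8, 78.8 and 81.2 in NSF and 75.0, 78.8 and 73.7 in SF. The male groups were far apart against a narrow spread, giving -0.24 (SE 0.0453, adjusted p = 0.0181), the smallest adjusted p among the members in this comparison. With the cortical markers as covariate the value was -0.22 (adjusted p = 0.133), and -0.17 without SM2 and SM3 (adjusted p = 0.278). *Kcnd2* went the other way in value, from 205, 211 and 196 CPM in NSM to 248, 250 and 214 in SM (0.22, SE 0.0737, adjusted p = 0.121), and in females from 196, 223 and 185 to 230, 216 and 238 (0.18, SE 0.0737, adjusted p = 0.948). Of the calcium-binding *Kcnip* subunits that join these pores, *Kcnip3* had a male value of 0.22 (SE 0.0578, adjusted p = 0.0509), and *Kcnip1* of -0.15 (SE 0.0929), while *Kcnip2*, the highest of them in level, stayed between 257 and 297 CPM in all 12 libraries. *Kcnab2*, a beta subunit of the *Kcna* channels, rose from 247, 259 and 245 CPM in NSM to 296, 278 and 295 in SM (0.21, SE 0.0483, adjusted p = 0.0350), while in NSF and SF it lay between 279 and 314. Its male value was 0.18 with the covariate (adjusted p = 0.193) and 0.25 without SM2 and SM3 (adjusted p = 0.196). Its relative *Kcnab1* had 0.24 (SE 0.0889, adjusted p = 0.147). Thus all 3 *Kcnab* genes were above the NSM range in SM, though 1 of the 3 passed the adjusted test.

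Among K2P leak channels, *Kcnk2* (chr1:191031816-191167711) stood at 122, 129 and 110 CPM in NSM, 151, 154 and 139 in SM, 124, 126 and 114 in NSF and 141, 119 and 135 in SF. All SM libraries were above all NSM libraries (0.30, SE 0.0730, adjusted p = 0.0452), and the female groups overlapped (0.12, SE 0.0730, adjusted p = 0.948). With the cortical markers as covariate the male value was 0.40 (adjusted p = 0.0855), and 0.34 without SM2 and SM3 (adjusted p = 0.227). *Kcnk12* (chr17:88145177-88197334), a silent K2P subunit, stood at 0.830, 1.08 and 1.34 CPM in NSM, 0.579, 0.532 and 0.820 in SM, 1.42, 1.72 and 1.91 in NSF and 1.12, 1.62 and 1.57 in SF. The male groups were separated by 0.830 against 0.820 only, and the log2 fold change was -0.72 (SE 0.260, adjusted p = 0.137). The call was lost without NSM3 or SM2, and also without SM2 and SM3 together (-0.83, unadjusted p = 0.0713), and the value was -0.86 with the covariate. *Kcnk1* (0.16, SE 0.0627), *Kcnk6* (0.24, SE 0.0952) and the acid-sensitive *Kcnk9* (-0.35, SE 0.138) had unadjusted p under 0.05 without being called.

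*Kcnh7* (chr2:62531471-63022344), an ether-a-go-go-related pore that damps repeated firing, had the highest of the male rises that passed the adjusted test. Its levels were 22.7, 22.2 and 23.3 CPM in NSM, 26.9, 37.1 and 37.1 in SM, 35.8, 32.3 and 44.0 in NSF and 28.3, 30.7 and 36.5 in SF. NSM was thus the lowest group and the other 3 overlapped; the male log2 fold change was 0.56 (SE 0.135, adjusted p = 0.0418). SM2 and SM3, highest in cortical markers among SM, were also highest in *Kcnh7*, and the value was 0.26 (unadjusted p = 0.152) without them and 0.21 (unadjusted p = 0.101) with the covariate. Of its exonic bases, 4.57% overlap *Gca* on the opposite strand. The silent subunit *Kcng4* had 22, 13 and 25 reads in NSM and 30, 26 and 33 in SM (0.84, SE 0.367, adjusted p = 0.207), and 0.11 with the covariate. *Kcne4*, the auxiliary gene with the largest male value among those with at least 10 reads on average, had 0.28 (SE 0.244). *Kcne3*, another auxiliary subunit, had 5, 4 and 7 reads in NSM and 6, 11 and 10 in SM (0.96, SE 0.353, adjusted p = 0.145), which is near the limit of what this depth can show, and 0.72 with the covariate (unadjusted p = 0.178). These calls also rested on single libraries. That of *Kcng4* was lost without NSM1, NSM2, SM1 or SM3 (0.63 to 1.03 over all 12 omissions) and that of *Kcne3* without NSM1, NSM2 or SM2 (0.85 to 1.17), whereas *Kcnh7* was called whichever library was left out (0.49 to 0.71).

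The other members with an unadjusted male p under 0.05 were small in size. Above 0 were *Kcnma1* (0.16, SE 0.0585), *Kcnj12* (0.19, SE 0.0778), *Kcnq5* (0.19, SE 0.0824), *Kcna4* (0.24, SE 0.0879) and *Kcnv1* (0.26, SE 0.0835). Below 0 were *Kcna3* (-0.21, SE 0.0852), *Kcnh5* (-0.20, SE 0.0762) and *Kcnf1* (-0.15, SE 0.0574). In all, 17 members had a positive and 10 a negative value at that threshold, together 27 of 84, against 21.5% of all genes (9.93% positive and 11.5% negative). By class, the 12 auxiliary genes of voltage-gated channels had 4 positive and 0 negative (median 0.17), and the 11 calcium- or sodium-activated genes 1 and 3 (median 0.02). The 29 voltage-gated pores had 5 and 3, with a median of -0.001. *Kcna1*, *Kcnc1*, *Kcnh3*, *Kcnt1* and *Kcnj4*, each the most abundant pore of its subfamily, had male values between -0.11 and 0.09, and their smallest unadjusted p was 0.13. The leading genes of other pore subfamilies, *Kcnk2*, *Kcnn3*, *Kcnd2*, *Kcnv1*, *Kcnma1* and *Kcnf1*, did have an unadjusted male p under 0.05, with the values given above.

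In females, 0 of 84 members were called, against 1.73% of all genes; 6 had an unadjusted p under 0.05, against 4.23%, and the smallest adjusted p was 0.948 in limma. edgeR and DESeq2 each called 1 member, *Kcnj6*, lower in SF, and each had 0 members at an adjusted p under 0.05, as had limma (0% of all genes). The 6 were the delayed rectifier *Kcnb2* (0.28, SE 0.0827) and *Kcnd2* (0.18, SE 0.0737) above 0, and *Kcnip1* (-0.25, SE 0.0919), *Kcna3* (-0.23, SE 0.0821), the silent *Kcng1* (-0.22, SE 0.0670) and *Kcnf1* (-0.15, SE 0.0574) below. *Kcnb2* stood at 6.11, 6.78 and 6.03 CPM in NSF and 7.77, 7.65 and 7.69 in SF, where the groups did not overlap, and at 7.22, 7.17 and 7.16 in NSM and 7.75, 8.46 and 6.96 in SM. The second *Kcnb2* entry, downstream on the same strand, stood between 1.84 and 2.05 CPM in all 6 female libraries. *Kcna3*, a voltage-gated pore, stood at 10.1, 10.4 and 10.4 CPM in NSF and 8.13, 8.55 and 9.81 in SF, and *Kcnf1* at 113, 110 and 130 against 107, 103 and 108. These 3 genes, *Kcna3*, *Kcnf1* and *Kcnd2*, had an unadjusted p under 0.05 with the same sign in both sexes, and the female effect minus the male effect was -0.02 (SE 0.118), 0.004 (SE 0.0812) and -0.03 (SE 0.104).

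**Figure D3:**
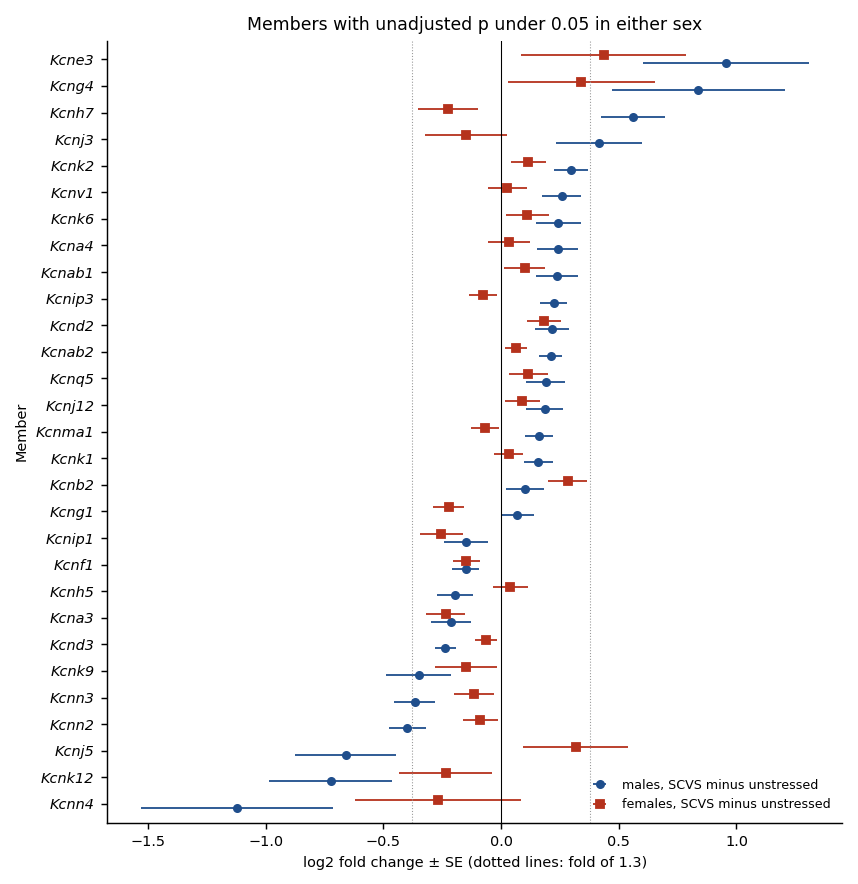
log2 fold change with its SE, SCVS minus unstressed, in males (circles) and females (squares) for 29 members with an unadjusted p under 0.05 in either sex, ordered by the male value; dotted lines mark a fold of 1.3. Male values run from -1.12 (*Kcnn4*) to 0.96 (*Kcne3*), and *Kcnh7*, *Kcnj3* and *Kcnj5* are among those with opposite signs in the sexes.

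The female result depended on NSF2, the only NSF library low in cortical markers. Without it, 7 members were called, against 3.47% of all genes, among them *Kcnj6* (-1.15, adjusted p = 0.0658), *Kcnk4* (-0.82), *Kcnc4* (-0.74), *Kcng2* (-0.48) and *Kcnj3* (-0.42) lower in SF, and *Kcnmb1* (0.82) higher; *Kcng1* (-0.31, adjusted p = 0.0473) passed the adjusted test but not the fold minimum. Without NSF1 and NSF3, leaving NSF2 as the lone unstressed female library with a spread assumed to equal that of the other groups, *Kcnc2* alone was called (0.63). The largest female values with all libraries, by class, were *Kcnj6* (-0.68, SE 0.336), *Kcnk4* (-0.48, SE 0.330), *Kcnmb1* (0.46, SE 0.306), *Kcnq1* (-0.41, SE 0.283), *Kcnrg* (-0.37, SE 0.322) and *Kcng2* (-0.36, SE 0.203), none with an unadjusted p under 0.05.

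The difference between the female and male stress effects, tested as an interaction, was past the call threshold for 4 members (4.76%), against 4.42% of all genes. At an adjusted p under 0.05 there were 0 members, against 0.0269% of all genes (5 genes). edgeR also had 0 members at that threshold and DESeq2 1, with the shares of all genes in those fits not given here. *Kcnh7* had -0.79 (SE 0.187, adjusted p = 0.182), that is 0.56 in males and -0.23 in females. *Kcnj5* had 0.98 (SE 0.309, adjusted p = 0.322), from -0.66 in males and 0.32 in females. *Kcnj3* had -0.56 (SE 0.252) and the mechanosensitive K2P channel *Kcnk4* -1.17 (SE 0.523), both at an adjusted p of 0.505. *Kcnn2* (0.31, SE 0.109), *Kcnd3* (0.17, SE 0.0640), *Kcnh5* (0.24, SE 0.106), *Kcnip3* (-0.30, SE 0.0817), *Kcng1* (-0.29, SE 0.0960) and *Kcnma1* (-0.23, SE 0.0827) had an unadjusted p under 0.05 at smaller sizes, 10 members in all against 9.55% of genes. With the cortical markers as covariate, 5 members were called, against 3.51% of all genes, and 0 of these were among the 4.

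The G protein-gated inward rectifiers are opened by receptors such as those for dopamine and opioids. Of the 4 genes, *Kcnj3* and *Kcnj5* were called for stress in males and *Kcnj3*, *Kcnj5* and *Kcnj6* between unstressed sexes, none at an adjusted p under 0.05. *Kcnj3*, the subunit common to most such channels, stood at 19.3, 18.8 and 19.0 CPM in NSM, 21.7, 27.0 and 27.7 in SM, 29.2, 19.8 and 37.9 in NSF and 22.0, 25.9 and 27.2 in SF. SM lay wholly above NSM (0.42, SE 0.182, adjusted p = 0.207), while NSF2 lay near NSM and the other NSF libraries above. Of its exonic bases 31.1% overlap a gene on the opposite strand. *Kcnj6* stood at 2.14, 1.75 and 2.35 CPM in NSM, 1.59, 2.55 and 3.10 in SM, 4.76, 2.47 and 7.09 in NSF and 1.99, 3.19 and 2.80 in SF. NSF1 and NSF3 were the highest libraries for both genes, as they were for the cortical markers. *Kcnj9* ran from 26.9 to 41.7 CPM and was not called in any comparison. *Kcnj5* alone took the other direction: 2.21, 1.65 and 1.91 CPM in NSM, 1.43, 0.999 and 1.26 in SM, 0.947, 1.48 and 1.06 in NSF and 1.10, 1.70 and 1.64 in SF. NSM was above SM and NSF without overlap, giving -0.66 for stress in males (SE 0.214, adjusted p = 0.105). With the covariate this value was -0.43 (unadjusted p = 0.175), and it was -0.40 without SM2 and SM3 (unadjusted p = 0.229), whereas *Kcnj3* turned to -0.12 with the covariate and was 0.20 without those libraries. The male call of *Kcnj5* was lost without SM2 (-0.77 to -0.50 over all omissions of 1 library) and that of *Kcnj3* without any NSM library, SM2 or SM3 (0.36 to 0.52).

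**Figure D4:**
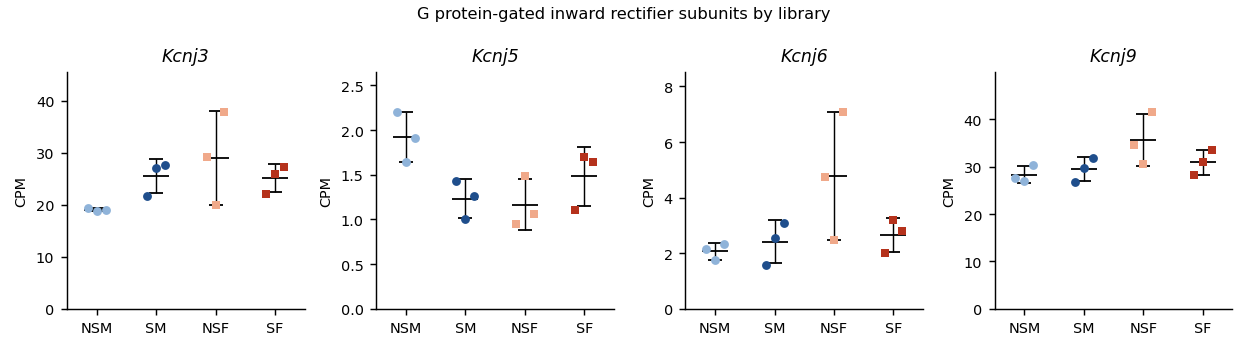
Level in CPM of the 4 G protein-gated inward rectifier genes in the 3 libraries of each group (points), with mean and SD (bars); each vertical axis starts at 0. *Kcnj6* reaches 4.76 and 7.09 CPM in a pair of NSF libraries and stays at or below 3.19 in the other 10, and *Kcnj5* is highest in NSM.

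Between unstressed animals, 13 members (15.5%) differed by sex, against 5.31% of all genes; 12 were higher in NSF (4.17% of genes) and 1 in NSM (1.15%). The median log2 difference, NSF minus NSM, was 0.11 over the members and 0.003 over all genes, and 29 members were higher and 2 lower at an unadjusted p under 0.05, against 15.4% of genes (10.2% higher and 5.17% lower). In limma *Kcnh7* (0.70, SE 0.133, adjusted p = 0.0459) and *Kcng1* (0.35, SE 0.0670, adjusted p = 0.0474) passed the adjusted test, against 0.285% of genes, and of these *Kcnh7* also passed the fold minimum, against 0.210%. The adjusted test was passed by 2 members in edgeR, 7 in DESeq2 and, in limma without NSF2, 12. In limma it was passed by 0 with the cortical covariate, with library-size scaling and in the 6 libraries of the comparison alone. Without NSF1, NSF3 or any 1 NSM library the count was also 0. The shares of all genes in those fits are not given here, so these counts lack a background. With 1 library left out, the adjusted p in limma ran from 0.00677 to 0.167 for *Kcnh7* and from 0.00248 to 0.237 for *Kcng1*. *Kcng1* stood at 32.0, 33.1 and 33.1 CPM in NSM, 32.5, 35.3 and 35.1 in SM, 43.6, 37.5 and 45.0 in NSF and 37.5, 34.0 and 36.1 in SF, so that NSF1 and NSF3 lay above every library of the other groups, and NSF2 and SF1 stood level. The stress and sex comparisons share the NSM and NSF libraries, so their results are not independent.

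The 13 called members came from every class but the auxiliaries of voltage-gated channels. The higher ones in NSF included the K2P genes *Kcnk4* (1.3, SE 0.370) and *Kcnk12* (0.67, SE 0.207), the inward rectifiers *Kcnj6* (1.02, SE 0.348) and *Kcnj3* (0.54, SE 0.178), the silent *Kcng2* (0.83, SE 0.214), *Kcng4* (0.81, SE 0.359) and *Kcns1* (0.41, SE 0.123), and the pores *Kcnc4* (0.73, SE 0.281) and *Kcnh7*. The BK beta subunit *Kcnmb2* (0.66, SE 0.269) and the SK channel *Kcnn1* (0.38, SE 0.111) were also among them, and *Kcnj5* was lower in NSF (-0.71, SE 0.210). *Kcnk4* stood at 0.494, 0.325 and 0.434 CPM in NSM and 0.947, 0.709 and 1.78 in NSF, without overlap. *Kcnc4*, a fast A-type pore, stood at 9.92, 8.13 and 9.78 in NSM and 16.8, 9.65 and 24.2 in NSF, with NSF2 inside the NSM range.

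Most of these calls were lost with the cortical markers as covariate or without NSF1 and NSF3. With the markers as covariate, 2 members were called, against 2.48% of all genes, 1 of them (*Kcns1*, 0.54) among the 13, and *Kcnj3*, *Kcnj6* and *Kcnc4* were among those that changed sign. Without NSF1 and NSF3, 8 were called, against 3.95% of all genes, 4 of them among the 13: *Kcnk12* (0.68), *Kcng2* (0.62), *Kcns1* (0.58) and *Kcnh7* (0.50). *Kcns1* stood at 3.55, 3.48 and 3.37 CPM in NSM and 3.99, 5.23 and 4.50 in NSF, with NSF2 the highest. The part of the cortical signal in the 13 differences was not tested. Single libraries mattered too. Calls were lost for *Kcns1* without NSF2 (lowest value 0.29), for *Kcnj3* without NSF3 (0.32), for *Kcnc4* without NSM2, NSF1 or NSF3 (0.41), for *Kcnmb2* without NSM2, NSM3, NSF1 or NSF3 (0.45), for *Kcng4* without NSM1, NSM2, NSF1, NSF3 or SF2 (0.59), and for *Kcnn1* without any of 8 libraries (0.26), NSF1 and NSF3 among them. *Kcng2*, *Kcnh7*, *Kcnj5*, *Kcnj6*, *Kcnk4* and *Kcnk12* were called whichever library was left out.

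**Figure D5:**
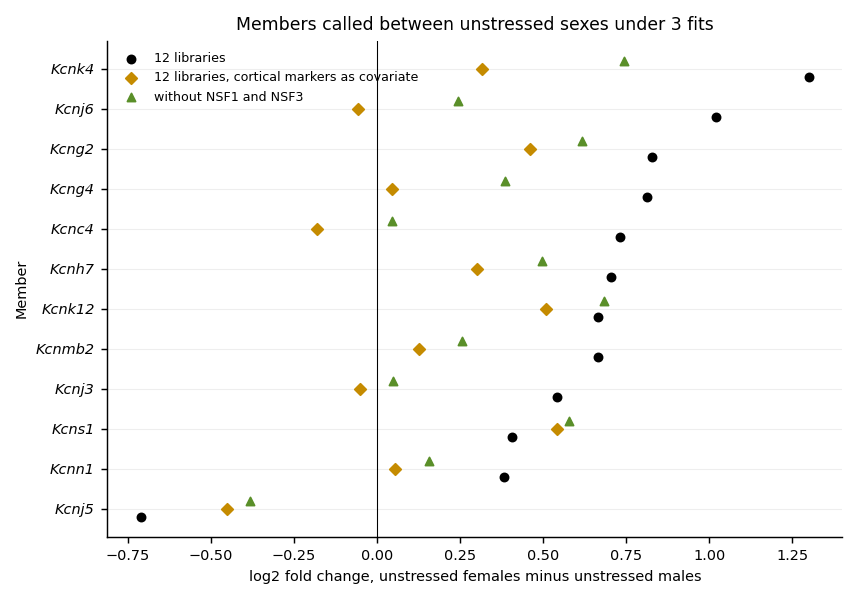
log2 fold change, unstressed females minus unstressed males, for 12 of the 13 members called in that comparison, from all 12 libraries (circles), with cortical markers as covariate (diamonds) and without NSF1 and NSF3 (triangles). *Kcns1*, *Kcnk12*, *Kcng2*, *Kcnk4* and *Kcnh7* stay at 0.30 or above in all 3, while *Kcnj6*, *Kcnj3* and *Kcnc4* fall below 0 with the covariate.

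After SCVS, 5 members (5.95%) differed by sex, against 5.55% of all genes, each higher in SF (4.58% of genes), and 15 had an unadjusted p under 0.05, against 16.4%. None passed an adjusted p under 0.05, against 0.145% of genes, or 0.129% with the fold minimum. At that threshold edgeR also had 0 members and DESeq2 4, with the shares of all genes in those fits not given here. *Kcnk12* had the largest difference (1.16, SE 0.252, adjusted p = 0.0853 in limma): its SF libraries began at 1.12 CPM and its SM libraries ended at 0.820. *Kcnh2*, an ether-a-go-go-related pore, stood at 28.9, 26.0 and 30.9 CPM in SM and 35.3, 41.7 and 41.5 in SF (0.47, SE 0.107, adjusted p = 0.0884), with 27.6, 35.1 and 38.1 in NSM and 41.2, 39.9 and 43.4 in NSF. *Kcnn2* (0.38, SE 0.0801), *Kcng2* (0.93, SE 0.252) and *Kcnn4* (0.97, SE 0.418) were the others. *Kcng2* (chr18:80492368-80493072) stood at 1.36, 0.936 and 1.55 CPM in SM and 1.82, 2.72 and 2.71 in SF. Without SM2 and SM3 the call of *Kcng2* was lost (0.78, unadjusted p = 0.0612). With the covariate, *Kcnk12* (1.19), *Kcnh2* (0.49), *Kcng2* (1.02) and *Kcnn2* (0.38) were called again, and *Kcnn4* (0.95, unadjusted p = 0.0509) was not. The call of *Kcnn2*, whose fold lay near the minimum, was lost in 9 of 12 omissions of 1 library, controls of the other comparisons included (0.33 to 0.44), and that of *Kcnn4* without SM1, SM2, SF2 or SF3 (0.68 to 1.36). *Kcnj4* and *Kcnh3* were each higher in females at an unadjusted p under 0.05 with and without stress, *Kcnj4* by 0.28 (SE 0.0869) in both, and *Kcnh3* by 0.31 and 0.32 (SE 0.113). Under the fold minimum, neither was called.

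Genes of the same pathway outside the *Kcn* name were set beside them. Of 25 tested partner genes (HCN channels, sulfonylurea receptors, and other proteins that bind or anchor potassium channels), males had 0 rises and 2 falls, against 2.36% and 4.08% of all genes: *Hcn3*, a pacemaker channel (-0.43, SE 0.142), and *Lrrc38*, a gamma subunit of BK channels (-0.90, SE 0.333). *Cntnap1* (0.22, adjusted p = 0.0328), which gathers *Kcna* channels beside nodes of Ranvier, *Rgs7* (0.30, adjusted p = 0.0363), which speeds closure of G protein-gated channels, and *Snap25* (0.27, adjusted p = 0.0391) rose under the fold minimum. In females 0 of 25 were called or had an unadjusted p under 0.05. Between unstressed sexes *Cntnap1* was higher in NSF under the fold minimum (0.35, SE 0.0495, adjusted p = 0.0133), the only partner gene past the adjusted test there. *Stx1a* (0.51, SE 0.188, adjusted p = 0.219) and *Hcn4* (0.48, SE 0.185, adjusted p = 0.242) were called as higher in NSF, and *Hcn4* was again higher in SF than in SM (0.67, SE 0.198), as was *Hcn3* (0.40, SE 0.144). Of the sodium channel genes 2 of 13 were called in males (*Scn4b*, up, among them) and of the calcium channel genes 1 of 26 (*Cacng1* up), with 0 in females in either family.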

How the data were processed

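The authors aligned reads to the mouse genome (NCBIM37, mm9) with TopHat2 and counted them per Ensembl gene with HTSeq, and the deposited counts are raw. The library kit (TruSeq RNA v2) keeps no strand, so reads from overlapping opposite-strand genes cannot be told apart. Symbols, coordinates and exon lengths came from GENCODE on NCBIM37, matched by gene ID; 17795 of the 18593 genes tested had a symbol. The ID that this annotation gives *Kcnj11* was not analysed here. Genes with more than 5 reads in all 3 libraries of a group were kept. Counts were scaled with TMM (edgeR 4.0.16), weighted with voom and fitted in limma 3.58.1 (R 4.3.3) with 1 mean per group; 5 contrasts were tested, two-sided, with Benjamini-Hochberg adjustment over all genes tested. edgeR's quasi-likelihood test and DESeq2 1.42.0 were alternatives. Low counts limit members under about 10 reads. Filter sequences were read from annotated coding transcripts.

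Members and lists were chosen with earlier results of these data known. Named with values were members called in any comparison, members with an unadjusted p under 0.05 in a stress comparison or the interaction, the highest member per kilobase of each subfamily, and, in each class, the member with the largest change in each sex among those averaging at least 10 reads; called partner genes were named too. Small RNA libraries were not used. Some genes that met these rules are counted but not reported here by name.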

Additional observations from a re-analysis of the deposited data

Results flagged for a closer look

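The stress effect differed between females and males, by the unadjusted interaction test and with a fold of at least 1.3, for 4 members. That is 4.76% of the members, near the 4.42% of all genes tested. Of these members, 0 passed the adjustment over all genes, against 0.0269% of all genes. For *Kcnh7* the female effect minus the male effect was -0.79 on the log2 scale (SE 0.187, unadjusted p = 0.000919, adjusted p = 0.182). It stayed between -0.93 and -0.67 whichever library was left out, and was -0.29 with the cortical markers as covariate. For *Kcnj5* the difference was 0.98 (SE 0.309, unadjusted p = 0.00706, adjusted p = 0.322), between 0.83 and 1.19 with any 1 library left out and 0.65 with the covariate. For *Kcnj3* it was -0.56 (SE 0.252, unadjusted p = 0.0419, adjusted p = 0.505), and for *Kcnk4* -1.17 (SE 0.523, unadjusted p = 0.0418, adjusted p = 0.505). The last 2 lost their call without any of several single libraries, NSF3 and SM2 among them.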

How the results depend on the processing

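The counts of called members (9 for stress in males, 0 in females, 4 for the interaction, 13 between unstressed and 5 between stressed sexes) depended most on the call rule. With adjusted p under 0.05 and the fold minimum they were 2 in males, 0 for the interaction, 1 between unstressed and 0 between stressed sexes, and with no fold minimum 27, 6, 10, 31 and 15 in the order above. For stress in females, 1 member was called by edgeR, by DESeq2 and with the replicate block, against 2%, 1.04% and 1.95% of all genes. With every gene read at least once, 1 *Kcn* gene outside the 84 was called and 0 of the 84, against 3.09% of all genes. Between stressed sexes 3 were called by edgeR, by DESeq2 and with at least 10 reads in every library, against 5.67%, 4.31% and 4.99% of all genes. The interaction gave 2 with library-size scaling, against 4.23% of all genes. Without SM2 and SM3 the male count was 4. Between unstressed sexes it was 2 with the cortical covariate and 8 without NSF1 and NSF3. Both leave-out pairs were chosen after seeing the data, and leave 1 library assumed to vary like the other groups. Leaving out any 1 library gave 3 to 11 called in males, 0 to 7 in females, 2 to 10 for the interaction, 7 to 19 between unstressed and 3 to 8 between stressed sexes. The share of all genes called moved as well. In the same order it ran from 4.44% to 8.67%, 1.42% to 3.47%, 3.6% to 5.91%, 3.77% to 6.58% and 4.03% to 7.88%. The counts that moved most were 3 in males without SM2, 7 in females and 10 for the interaction without NSF2, 2 in females without SF1, 7 and 8 between unstressed sexes without NSF3 and NSM2, and 3 and 8 between stressed sexes without SM1 and SF1; the interaction gave 2 without SM2, NSF3, SF1 or SF2.

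Among the members named, signs reversed in 6 instances, all with the cortical covariate: *Kcnj3* (-0.12) for stress in males, *Kcnj3* (0.17) and *Kcnk4* (0.042) for the interaction, and *Kcnj3* (-0.052), *Kcnj6* (-0.058) and *Kcnc4* (-0.18) between unstressed sexes. The cause was not tested.

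Equal replicate numbers were checked for pairing. Between the groups compared here, the correlation of deviations of same-numbered libraries ran from -0.0291 to 0.316. Over all pairs of libraries from different groups, the mean was 0.0598 for same numbers and -0.0299 for other numbers. Of 12 libraries, 8 resembled their own number most. Same-numbered libraries were thus slightly more alike, but the labels do not say what the numbers stand for. The numbers were not used as pairs in the main fit, and what the likeness reflects was not tested. The replicate block changed the count of calls beyond 1.5 times only in females (1). It moved the members at an adjusted p under 0.05 from 6 to 8 in males, from 2 to 8 between unstressed and from 0 to 6 between stressed sexes. The shares of all genes at that threshold in the block fit are not given here. Depth limits the scarce members, *Kcne3*, *Kcne2*, *Kcnj15* and *Kcnn4*, to means under 13 reads.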
